A study of Mus musculus with 6 samples.

Results

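The WNT pathway genes described here encode ligands, receptors, the destruction complex, feedback inhibitors and one classical target, T. There were 46 of them, taken by symbol from a table of 27179 genes, and all had a row in it. After a filter on low counts 41 were tested, and the other 5 (Wnt3a, Wnt8a, Lgr5, Nkd1 and Dkk1) are given by their counts alone. RNA came from 6 libraries of mouse embryonic stem cells, pluripotent cells of the early embryo kept in culture with serum and LIF on gelatin. All of the cells expressed Tfe3-ERT2, a fusion of the transcription factor Tfe3 to a hormone-binding domain that enters the nucleus when 4-hydroxytamoxifen (4OHT) binds it. Of the libraries, 3 came from cells given 4OHT at 1 µg/mL for 48 h and 3 from cells given the ethanol vehicle (EtOH). Because the vehicle controls carry the fusion too and no cells without it are among these libraries, a response to 4OHT itself and a response to nuclear Tfe3 cannot be told apart. Neither the promoter that drives the fusion nor the number of clones was given in the sources used here.

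WNT proteins are secreted ligands that carry a lipid. They bind a Frizzled receptor and a co-receptor of the Lrp family on the receiving cell, and Dishevelled proteins then stop the destruction complex, which otherwise marks beta-catenin for degradation. Stabilised beta-catenin turns on target genes together with TCF/LEF factors, and several of those targets are inhibitors that limit the pathway. In embryonic stem cells the pathway is known both for sustaining self-renewal and, later, for starting the mesendoderm programme to which T belongs.

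Library totals lay between 4092877 and 6427880 counts, and levels are given as CPM, in which TMM factors put all libraries on 1 scale. The value of 3 counts was 0.469 to 0.738 CPM, a floor that covers counting error only. Tfe3 was at 1004 to 1074 CPM with EtOH and at 827 to 836 CPM with 4OHT, a sum of endogenous and fusion transcripts as far as these share counted sequence, so it does not check the labels. Summed levels of 8 embryonic stem cell markers were 4253 to 4328 CPM with EtOH and 5449.8 to 5508 CPM with 4OHT. Of these markers 5 rose, among them Tfcp2l1 (669 to 1509.8 CPM) and Esrrb (566 to 882 CPM), Pou5f1 fell (791 to 697 CPM), and Sox2 and Dppa5a were not called. Nothing in the labels ties the 3 libraries of a group to separate cultures, and p-values therefore reflect only the spread between these libraries, which may be technical. In such bulk samples, fewer cells of a type and less RNA per cell cannot be told apart.

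Of the 41 tested WNT genes, 12 were higher and 8 lower with 4OHT, and 21 were not called (edgeR quasi-likelihood test, Benjamini-Hochberg adjusted p under 0.05 over 12345 genes). That is 48.8% of these genes, beside 42.0% called among all genes tested (21.4% higher and 20.6% lower). Changes of at least 1.5-fold were called for 5 higher genes (Wnt4, Wnt7b, Wls, Lrp5 and Rnf43) and 4 lower genes (Wnt3, Fzd3, Notum and T), beside 7.85% and 4.31% of all genes. The median log2 fold change was 0.06 over the WNT genes and −0.0024 over all genes, and the median absolute value was 0.28 and 0.21. Of the 9 genes changed at least 1.5-fold, 8 had under 50 CPM with EtOH, Lrp5 being the exception, beside 27 of all 41 tested WNT genes. Values of the 2 groups did not overlap in 26 of the 41 genes, beside 48.8% of all genes tested. Wnt3, Fzd1, Rnf43 and T reached the minimum count in all libraries of 1 group only, so their place among the tested genes is tied to the difference itself.

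**Figure D1:**
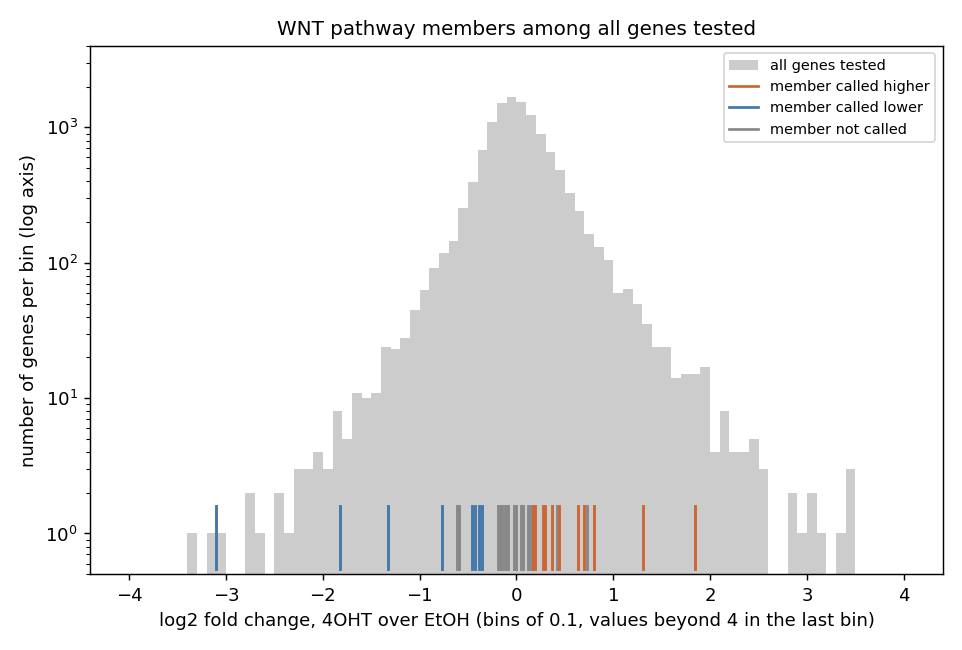
Histogram of log2 fold changes (4OHT over EtOH) of the 12345 genes tested, with the number of genes per bin on a log axis. Short lines at the base mark the 41 WNT genes, 12 called higher, 8 called lower and 21 not called, and they spread over both sides with T at −3.11 as the lowest.

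Of the 3 tested ligands Wnt7b and Wnt4 rose and Wnt3 fell. Wnt7b, a ligand known from the placenta and lung, had levels of 22.2, 19.4 and 16.2 CPM with EtOH and 69.7, 69.3 and 71.1 CPM with 4OHT. All 3 values with 4OHT lay far above any with EtOH, and the rise was 3.60-fold (log2 fold change 1.85, SE 0.10, edgeR adjusted p = 4.3e-48; GRCm38 chromosome 15, 85535437 to 85581821). Wnt3, which the embryo needs to form the primitive streak, went the other way, from 5.84, 4.52 and 6.40 CPM with EtOH to 1.52, 1.80 and 1.41 CPM with 4OHT. The groups did not overlap, and Wnt3 was 3.55-fold lower (log2 fold change −1.83, SE 0.34, edgeR adjusted p = 1.2e-06; chromosome 11, 103774175 to 103818021). Wnt3 reached the minimum count in the EtOH libraries only, so its place among the tested genes is tied to the difference. With no filter its log2 fold change was −1.82 (edgeR adjusted p = 1.1e-06). Wnt4 was at 5.44, 7.23 and 8.61 CPM with EtOH and 12.2, 14.4 and 10.2 CPM with 4OHT, a rise of 1.74-fold (SE 0.19 on the log2 scale, edgeR adjusted p = 0.00025).

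The other 2 ligands of this group, Wnt8a and Wnt3a, were near the limit of detection. Wnt8a, a ligand of the primitive streak, had 10, 10 and 6 counts with EtOH and 3, 1 and 2 with 4OHT, and Wnt3a had 0, 2 and 2 against 3, 2 and 2. With no filter the log2 fold change of Wnt8a was −2.40 (edgeR adjusted p = 0.0018). A filter of 1 CPM in 3 libraries admitted Wnt8a through the EtOH libraries only, so its call there (adjusted p = 0.00088) is tied to the difference. Summed per kilobase of gene length, the 5 ligands were at 9.39 ± 0.253 with EtOH and 19.97 ± 0.400 with 4OHT (CPM per kilobase, SD, n = 3 each). Wnt7b made up 46.4% ± 5.90 of that sum with EtOH and 79.4% ± 2.70 with 4OHT, while the share of Wnt3 was 19.1% ± 3.53 and 2.53% ± 0.286. Of the tested ligands that the sum leaves out, Wnt7a and Wnt9a rose, and Wnt6 and Wnt10a were not called. With EtOH Wnt6 (8.11 ± 1.26 CPM per kilobase) lay above Wnt7b (4.37 ± 0.671). With 4OHT Wnt6 was at 7.01 ± 0.572 and Wnt7b at 15.9 ± 0.216. Within a library the ratio of Wnt7b to Wnt3 per length was 2.50 ± 0.640 with EtOH and 31.7 ± 4.32 with 4OHT. This ratio and those of other related genes were chosen after values had been seen, so they are a description and carry no test.

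Beside the ligands, markers of trophectoderm, the outer layer of the blastocyst, also moved with the groups. Their summed level over 8 genes was 447 to 469 CPM with EtOH and 958 to 979 CPM with 4OHT. Of these 8 markers, the keratin genes Krt8 (219 ± 8.23 to 489 ± 2.86 CPM) and Krt18 (161 ± 7.39 to 371 ± 5.87 CPM) made up most of that level. All 6 tested were higher, Hand1 having reached the minimum count through the 4OHT libraries only, but the defining factor Elf5 had a count in only 1 library, a single count, and Cdx2 had 14, 12 and 5 counts with EtOH and 6, 8 and 12 with 4OHT. The part of such cells in the ligand changes was not tested. Markers of fibroblasts, the usual feeder cells, were at 57.2 to 70.9 CPM and 59.7 to 67.5 CPM over 8 genes, with Lum at 0 in every library. Vim (46.0 ± 3.06 and 43.6 ± 1.81 CPM) made up most of that fibroblast level. Primitive endoderm markers were at 15.01 to 23.0 and 23.2 to 28.1 CPM over 7 genes. None of 4 tested fibroblast markers and none of 3 tested primitive endoderm markers was called. The 7 neural markers summed to 172 to 184 CPM with EtOH and 98.4 to 108 CPM with 4OHT, and 3 of 5 tested fell. Among all genes tested 21.4% were higher and 20.6% lower.

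Of the 2 genes that prepare ligands for export, the carrier Wls rose. It was at 18.3, 20.6 and 22.1 CPM with EtOH and 34.5, 29.8 and 30.8 CPM with 4OHT, 1.56-fold higher (SE 0.12 on the log2 scale, edgeR adjusted p = 1.0e-06). Porcn, the enzyme that attaches the lipid, was at 17.3, 19.7 and 27.1 CPM against 21.3, 19.7 and 17.8 CPM. The Porcn values overlapped and the gene was not called (log2 fold change −0.12, interval of 1.96 SE on either side −0.38 to 0.14, edgeR adjusted p = 0.51). Leaving out EtOH replicate 3 turned its log2 fold change to 0.08.

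**Figure D2:**
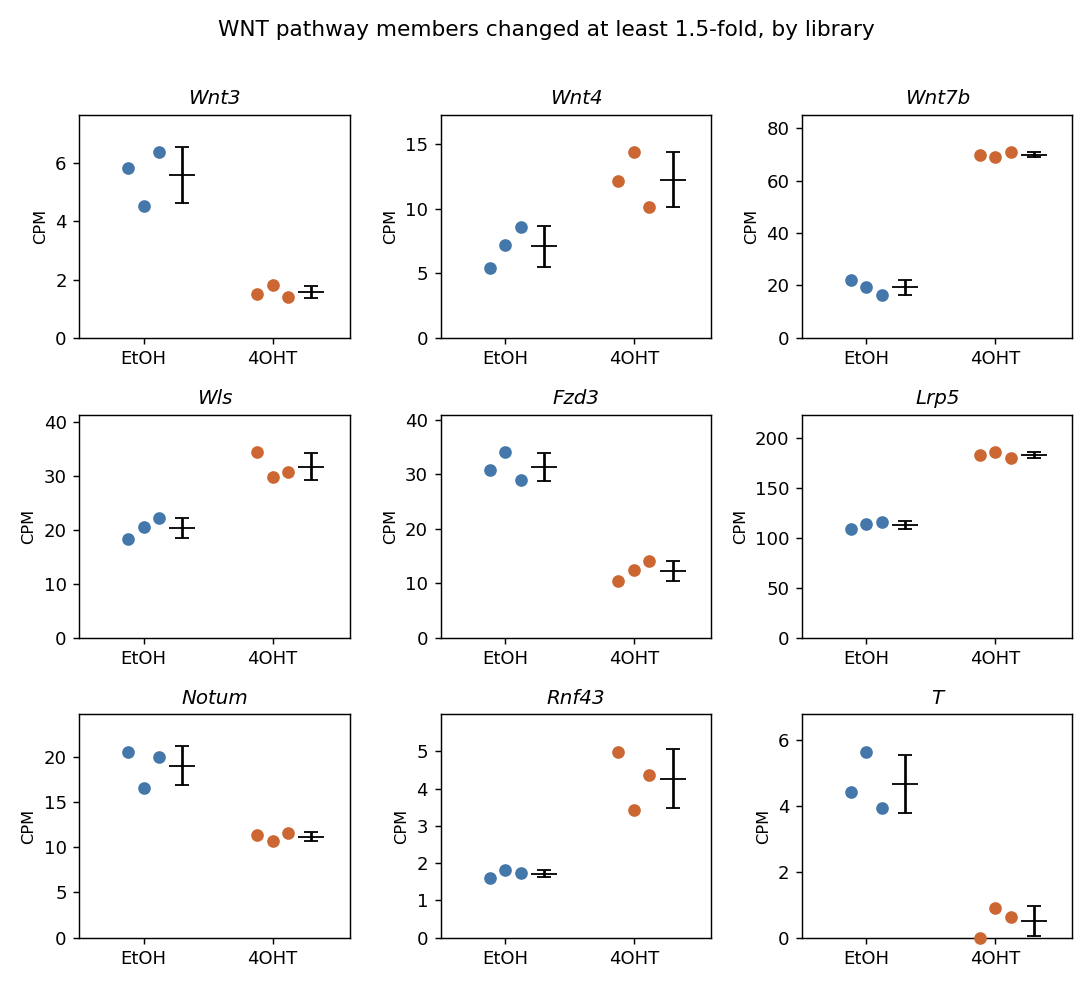
CPM of the 9 WNT genes called at 1.5-fold or more, with 1 point per library, a dash for the mean and bars for 1 SD (n = 3 per group), each panel on a linear axis from 0. Wnt3, Fzd3, Notum and T lie lower with 4OHT and Wnt4, Wnt7b, Wls, Lrp5 and Rnf43 higher, and the 3 points of one group do not overlap those of the other in any panel.

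Frizzled transcripts were dominated by Fzd7 and Fzd5 in both groups. Per length, Fzd7 was at 51.2 ± 3.46 CPM per kilobase with EtOH and 57.9 ± 1.80 with 4OHT, and Fzd5 at 26.1 ± 1.86 and 25.7 ± 0.453 (SD, n = 3 each). Next with EtOH came Fzd2 (7.15 ± 0.682), Fzd10 (4.40 ± 0.651), Fzd6 (2.87 ± 0.295) and Fzd3 (2.46 ± 0.203 CPM per kilobase), then Fzd4 (1.32 ± 0.220), Fzd8 (0.959 ± 0.146) and Fzd1 (0.548 ± 0.185). With EtOH the values of the neighbours Fzd6 and Fzd3 overlapped, as did those of Fzd4 and Fzd8. The sum over the 9 receptors was 97.1 ± 4.95 CPM per kilobase with EtOH and 100.2 ± 0.336 with 4OHT. Fzd7 took 52.8% ± 0.942 of that sum with EtOH and 57.8% ± 1.69 with 4OHT. The ranking and the sum leave out Fzd9, which is on a further list. Fzd9 was at 1.25 ± 0.275 CPM per kilobase with EtOH and 0.625 ± 0.356 with 4OHT. It was not called (edgeR adjusted p = 0.076).

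Of the 9 listed Frizzled genes, 1 rose, 2 fell and 6 were not called, beside 21.4% higher and 20.6% lower among all genes. Fzd3, a receptor best known from planar cell polarity and axon guidance, was at 30.8, 34.1 and 29.0 CPM with EtOH and 10.4, 12.4 and 14.1 CPM with 4OHT. It was 2.51-fold lower (log2 fold change −1.33, SE 0.13, edgeR adjusted p = 1.1e-18; chromosome 14, 65192441 to 65262463), and the 3 values with 4OHT were all below 15 CPM. Fzd6, its closest relative, was at 11.3, 11.1 and 13.3 CPM against 11.7, 10.3 and 9.37 CPM, with overlap, and did not pass the test (log2 fold change −0.19, interval −0.54 to 0.15). The ratio of Fzd6 to Fzd3 per length was 1.18 ± 0.210 with EtOH and 2.69 ± 0.716 with 4OHT, without overlap. In the 4OHT libraries Fzd3 (0.966 ± 0.143 CPM per kilobase) thereby came to lie beside Fzd8 (1.28 ± 0.135), Fzd1 (0.946 ± 0.457) and Fzd4 (0.866 ± 0.0762). The values of Fzd3, Fzd1 and Fzd4 overlapped there.

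Changes at the abundant receptors were small. Fzd7 went from 248, 262 and 229 CPM with EtOH to 268, 283 and 284 CPM with 4OHT, 1.13-fold higher (SE 0.04 on the log2 scale, edgeR adjusted p = 0.00025). Fzd5 was at 189, 187 and 166 against 181, 175 and 176 CPM, and its log2 fold change was −0.03 with an interval of −0.12 to 0.07, so a change of 1.25-fold lay outside it. Without EtOH replicate 1 the value of Fzd5 was 0.01. Fzd2 was at 24.4, 24.6 and 28.8 CPM with EtOH and 21.1, 20.2 and 19.5 CPM with 4OHT, 1.28-fold lower (edgeR adjusted p = 0.013). The call of Fzd2 was lost without EtOH replicate 3 (adjusted p = 0.11) or 4OHT replicate 3 (0.057) and with DESeq2 (0.076). Fzd10 was at 13.2 ± 1.95 and 13.3 ± 1.35 CPM (log2 fold change −0.0027, interval −0.32 to 0.31).

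The scarce Frizzled genes were not called. Fzd4 (5.24, 5.43 and 3.94 CPM with EtOH, 3.26, 2.89 and 3.44 with 4OHT) was lower in all libraries of 4OHT and Fzd8 (3.22, 2.71 and 3.69 against 4.34, 3.79 and 4.69) higher in all. Neither passed the test, with edgeR adjusted p = 0.082 for Fzd4 and 0.28 for Fzd8 and intervals of −1.19 to −0.04 and −0.18 to 1.02. Fzd1 had 2.42, 1.58 and 3.20 CPM with EtOH and 6.29, 3.79 and 2.34 CPM with 4OHT (edgeR adjusted p = 0.075). Its log2 fold change of 0.73 was 0.35 when 4OHT replicate 1 was left out (adjusted p = 0.53) and 1.06 when 4OHT replicate 3 was (adjusted p = 0.013).

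**Figure D3:**
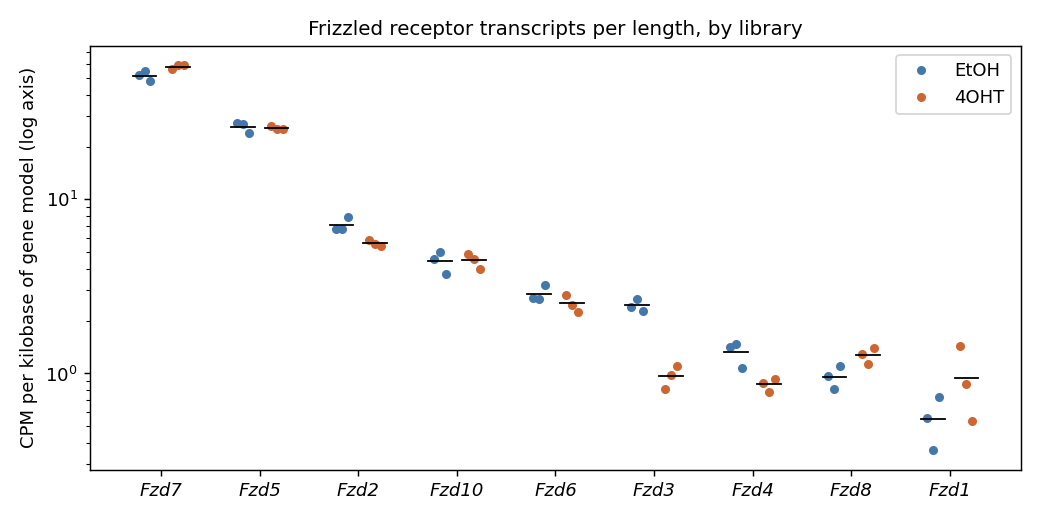
Levels of the 9 Frizzled genes in CPM per kilobase of gene length on a log axis, 1 point per library and a line for the mean of 3, ordered by the mean with EtOH. Fzd7 and Fzd5 lie highest in both groups, and Fzd3 falls from 2.46 to 0.966 CPM per kilobase.

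At the co-receptors Lrp5 rose and Lrp6 was not called. Lrp5, which with Lrp6 binds the ligand beside Frizzled and takes up Axin, was at 109, 113 and 116 CPM with EtOH and 183, 186 and 179.9 CPM with 4OHT. All 3 libraries of 4OHT exceeded all of EtOH, by 1.62-fold on average (log2 fold change 0.70, SE 0.05, edgeR adjusted p = 4.6e-30; chromosome 19, 3584825 to 3686585). Lrp6 was at 87.5 ± 1.95 CPM against 90.6 ± 6.10 CPM (SD, n = 3 each), with overlap (log2 fold change 0.06, interval −0.07 to 0.18, adjusted p = 0.52). Per length Lrp5 was already the more abundant of the pair, with 21.8 ± 0.701 CPM per kilobase against 9.34 ± 0.208 for Lrp6 in EtOH. The ratio of Lrp5 to Lrp6 was 2.34 ± 0.106 with EtOH and 3.67 ± 0.280 with 4OHT.

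The alternative receptors Ryk and Ror2 were not called. Ryk, an atypical receptor with a pseudokinase domain, was at 95.5, 88.6 and 90.05 CPM with EtOH and 97.7, 102 and 102 CPM with 4OHT. Those groups did not overlap, the edgeR adjusted p was 0.061, and it was 0.047 without EtOH replicate 1. Ror2, a receptor tyrosine kinase for WNT signals that bypass beta-catenin, was at 23.4 ± 4.69 and 21.6 ± 2.94 CPM (SD, n = 3 each). Its log2 fold change was −0.11, or 0.05 when EtOH replicate 3 was left out and 0.01 when 4OHT replicate 3 was, and its interval was −0.36 to 0.14.

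Lgr4 and Lgr5 bind R-spondins, which raise WNT responses by clearing the ligases Rnf43 and Znrf3 from the cell surface. Lgr4 fell, from 89.8, 95.8 and 82.4 CPM with EtOH to 61.9, 66.7 and 69.4 CPM with 4OHT. The groups did not overlap and Lgr4 was 1.35-fold lower (SE 0.07 on the log2 scale, edgeR adjusted p = 1.6e-08). Lgr5, a stem cell marker of the gut, had 1, 1 and 0 counts with EtOH and 0, 0 and 0 with 4OHT, so Lgr4 was the R-spondin receptor of the pair that these libraries detected above the floor of 3 counts.

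Of the Dishevelled genes, which relay the signal from Frizzled into the cell, Dvl2 and Dvl3 rose. Dvl2 was at 97.1, 93.1 and 94.5 CPM with EtOH and 117, 118 and 115 CPM with 4OHT, 1.23-fold higher (SE 0.06 on the log2 scale, edgeR adjusted p = 6.4e-06). Dvl3 was at 35.8, 36.8 and 35.2 against 46.9, 41.5 and 42.8 CPM, 1.21-fold higher (edgeR adjusted p = 0.011, but 0.064 without 4OHT replicate 1 and 0.077 with DESeq2). Dvl1 was at 41.7, 42.0 and 42.1 CPM with EtOH and 40.4, 39.1 and 34.8 CPM with 4OHT. Every 4OHT value of Dvl1 lay below the EtOH values, and the gene was not called (log2 fold change −0.15, interval −0.33 to 0.04). The ratio of Dvl2 to Dvl1 per length was 2.58 ± 0.0670 with EtOH and 3.51 ± 0.246 with 4OHT, and that of Dvl2 to Dvl3 was 2.66 ± 0.0988 and 2.70 ± 0.182, with overlap.

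Promoter windows of 250 bases before an annotated start were found for 25 of the 46 genes in RefSeq on GRCm38.p6. They were searched on both strands for CACGTG, the E-box bound by MiT/TFE, MYC and USF factors, for CATGTG, the core of the M-box, and for CTTTGA, the core of TCF/LEF sites. Among the 25 genes 1 held CACGTG, 1 held CATGTG and 5 held CTTTGA, beside 6.02%, 12.3% and 13.8% of all 32851 windows. Among 9635 tested genes with a window, 10.2% held CACGTG, 8.53% CATGTG and 12.2% CTTTGA in any window. CACGTG reads the same on both strands and was counted once, and the motifs differ in letters on both strands. The windows with CTTTGA were those of Dkk1, Fzd1, Gsk3a, Gsk3b and T, and the one with CATGTG was that of Ryk. For Axin2, Nkd1 and Bcl9 the window lies inside the span of the gene. The bases before the outer start of these genes were therefore not searched. The single gene with CACGTG was Dvl2, where the motif stood 3 times, its first base 123, 76 and 33 bases before the start. No window was available for Wnt7b, Lrp5, Fzd3 and Notum, which changed at least 1.5-fold, so these were not searched. The same holds for the called genes Fzd2, Amer1, Sfrp1 and Bcl9l. The Dvl2 window is shown because, among the 25 genes searched, it alone holds CACGTG, an E-box of the induced factor's family. It covers chr11:70000342-70000591 on the plus strand, with the motif in capitals:
Dvl2: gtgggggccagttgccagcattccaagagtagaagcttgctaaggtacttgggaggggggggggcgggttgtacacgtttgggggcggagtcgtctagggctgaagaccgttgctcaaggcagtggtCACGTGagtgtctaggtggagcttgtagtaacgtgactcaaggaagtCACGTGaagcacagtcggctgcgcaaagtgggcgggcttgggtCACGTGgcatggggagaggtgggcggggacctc
A match is a description of letters and not evidence of binding. Dvl2 shares 18.3% of its exon bases with Acadvl on the opposite strand. Because the strand setting of the counting is not known, reads of the 2 genes may not be told apart. Acadvl, the mitochondrial very long-chain acyl-CoA dehydrogenase, had 84, 87 and 92 counts with EtOH and 96, 120 and 149 with 4OHT (log2 fold change 0.17, edgeR adjusted p = 0.31).

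In the destruction complex 5 of 8 genes were not called, 1 rose and 2 fell, beside 21.4% higher and 20.6% lower among all genes. Csnk1a1, the casein kinase that places the first phosphate on beta-catenin, was at 424, 401 and 394 CPM with EtOH and 434, 413 and 436 CPM with 4OHT (log2 fold change 0.07, interval −0.0021 to 0.15). It was called higher without 4OHT replicate 2 (edgeR adjusted p = 0.034). The scaffold Apc was at 182, 192 and 176 against 193, 180.2 and 199.6 CPM (interval −0.03 to 0.15) and the scaffold Axin1 at 81.6, 85.7 and 80.0 against 78.8, 79.2 and 74.98 CPM (interval −0.22 to 0.04). Btrc, the F-box protein that recognises phosphorylated beta-catenin, was at 47.7 ± 0.791 and 51.8 ± 1.76 CPM (log2 fold change 0.12, interval −0.05 to 0.28). The kinase Gsk3a was at 69.5, 58.3 and 79.5 against 68.8, 75.2 and 70.4 CPM (log2 fold change 0.06, or −0.05 without EtOH replicate 2) and shares 28.3% of its exon bases with a model on the opposite strand. For Csnk1a1, Apc, Axin1, Btrc and Gsk3a the interval lay within 1.25-fold in both directions, as it did for 10 of the 21 WNT genes that were not called.

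The members of the complex that passed the test were Axin2, Amer1 and Gsk3b. Axin2, a scaffold that the pathway itself induces, was at 13.1, 14.2 and 13.8 CPM with EtOH and 8.90, 9.56 and 11.1 CPM with 4OHT. The groups did not overlap and Axin2 was 1.38-fold lower (log2 fold change −0.46, SE 0.17, edgeR adjusted p = 0.021). That call was lost when EtOH replicate 2 (adjusted p = 0.066), or of the 4OHT libraries replicate 1 (0.078) or replicate 2 (0.055), was left out, and with DESeq2 (0.099). Amer1, which brings the complex to the membrane, was at 34.6, 38.0 and 30.3 CPM against 29.3, 26.5 and 23.7 CPM, 1.31-fold lower (edgeR adjusted p = 0.0015). Per length Axin1 exceeded Axin2 by 6.78 ± 0.241 times with EtOH and 8.98 ± 1.22 times with 4OHT.

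Gsk3b, the second kinase gene, was at 80.96, 83.9 and 65.7 CPM with EtOH and 88.3, 83.9 and 91.8 CPM with 4OHT. Its highest EtOH value and lowest 4OHT value crossed, the only overlap among the 20 called genes, and it was 1.14-fold higher (edgeR adjusted p = 0.015). Without EtOH replicate 3 the adjusted p was 0.31 and the log2 fold change was 0.10 in place of 0.19, without 4OHT replicate 3 the p was 0.094, and with DESeq2 it was 0.12. The ratio of Gsk3a to Gsk3b was 3.38 ± 0.966 and 2.99 ± 0.264, with overlap. Only 25 of the 46 genes had a promoter window, and that of Gsk3b holds the TCF/LEF core, read on the other strand as TCAAAG. It is shown because Gsk3b and T were the called genes with that core, and covers chr16:38088751-38089000 on the plus strand, with the core in capitals:
Gsk3b: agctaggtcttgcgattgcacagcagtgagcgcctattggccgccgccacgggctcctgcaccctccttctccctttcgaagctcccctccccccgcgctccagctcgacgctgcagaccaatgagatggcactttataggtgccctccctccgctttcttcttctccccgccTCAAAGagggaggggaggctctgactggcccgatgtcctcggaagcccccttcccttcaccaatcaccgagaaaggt

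Feedback and secreted inhibitors moved in both directions, with 2 of 7 tested higher, 1 lower and 4 not called. Among all genes tested 21.4% were higher and 20.6% lower. Notum, a secreted enzyme that removes the lipid from WNT ligands, was at 20.5, 16.5 and 19.9 CPM with EtOH and 11.3, 10.6 and 11.6 CPM with 4OHT. All 3 values with 4OHT were below 12 CPM, and Notum was 1.70-fold lower (log2 fold change −0.77, SE 0.15, edgeR adjusted p = 7.2e-06; chromosome 11, 120653788 to 120661193). Models on the opposite strand cover 38.1% of its exon bases. Rnf43, a membrane ligase that removes Frizzled from the surface, rose from 1.61, 1.81 and 1.72 CPM (8, 8 and 7 counts) to 4.99, 3.43 and 4.37 CPM (23, 19 and 28 counts). Its rise was 2.48-fold (log2 fold change 1.31, SE 0.36, edgeR adjusted p = 0.0014; chromosome 11, 87663087 to 87735539). Rnf43 reached the minimum count in the 4OHT libraries only, so its place among the tested genes is tied to the difference. With no filter its log2 fold change was 1.31 (edgeR adjusted p = 0.002).

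Znrf3, the ligase related to Rnf43, was more abundant and was not called. It was at 17.3, 22.2 and 18.5 CPM with EtOH and 14.8, 18.0 and 23.1 CPM with 4OHT (log2 fold change −0.02, interval −0.29 to 0.25), and the sign turned when EtOH replicate 2 (0.09), or of the 4OHT libraries replicate 1 (0.11) or replicate 2 (0.02), was left out. Per length, Znrf3 exceeded Rnf43 by 7.68 ± 0.599 times with EtOH and 3.08 ± 0.915 times with 4OHT, without overlap. Both ligases together were at 3.46 ± 0.422 CPM per kilobase with EtOH and 3.94 ± 0.642 with 4OHT.

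Sfrp1, a secreted protein with a Frizzled-like domain, rose from 75.1, 73.5 and 74.8 CPM with EtOH to 94.0, 94.9 and 99.5 CPM with 4OHT. It was the most abundant inhibitor transcript of this group per length (17.03 ± 0.2002 CPM per kilobase with EtOH) and was 1.29-fold higher without overlap (SE 0.07 on the log2 scale, edgeR adjusted p = 3.8e-07). Dkk1, which blocks Lrp co-receptors, had 1, 2 and 1 counts with EtOH and 5, 7 and 7 with 4OHT and was too low for the test. With no filter its log2 fold change was 1.95 and it did not pass the test (edgeR adjusted p = 0.065). It passed under the filter of 1 CPM in 3 libraries (adjusted p = 0.036), which it reached through the 4OHT libraries only. Kremen1, a receptor for Dkk proteins, was at 33.3 ± 3.05 and 37.3 ± 2.87 CPM (log2 fold change 0.17, interval −0.03 to 0.36).

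The Naked genes, which encode antagonists of Dishevelled, were low. Nkd1 had 22, 10 and 8 counts with EtOH and 6, 7 and 4 with 4OHT, which is 4.43, 2.26 and 1.97 CPM against 1.30, 1.26 and 0.625 CPM. It did not pass the filter. With no filter its log2 fold change was −1.52 (edgeR adjusted p = 0.0046), and it reached 1 CPM in all 3 libraries of EtOH only. Nkd2 was at 5.24, 3.39 and 4.18 against 3.47, 2.71 and 2.50 CPM and did not pass the test (log2 fold change −0.60, interval −1.21 to 0.02, adjusted p = 0.12). Apcdd1, a membrane inhibitor, was at 3.86 ± 0.216 and 3.94 ± 1.16 CPM, and its interval of −0.54 to 0.63 reaches past a 1.5-fold rise but not to a 1.5-fold fall.

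**Figure D4:**
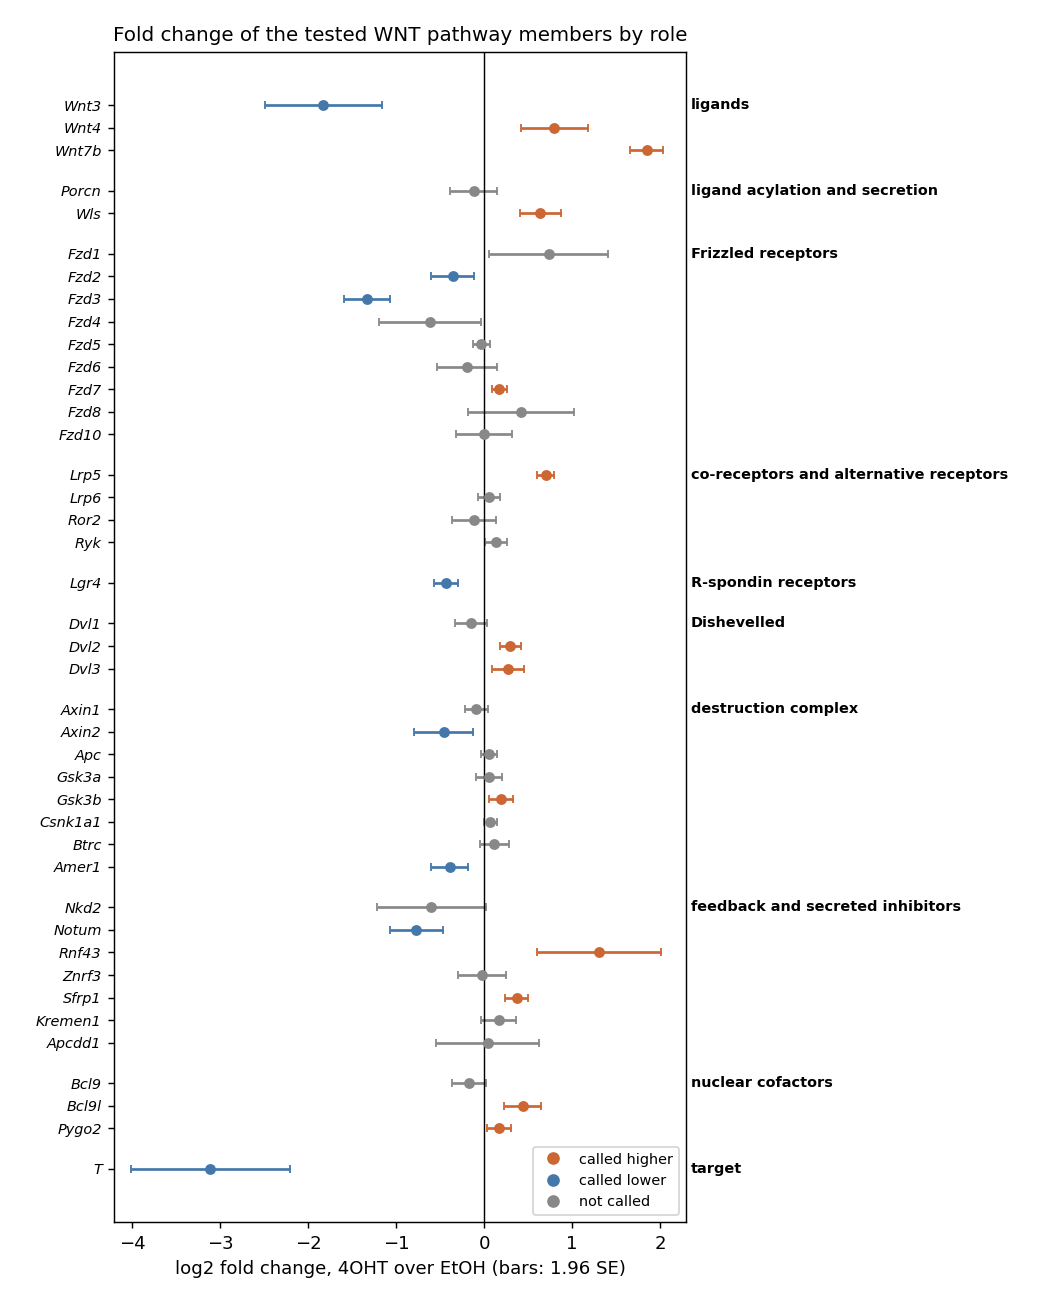
Log2 fold change (4OHT over EtOH) of the 41 tested WNT genes by role, with bars of 1.96 SE, called genes in colour and the others in grey. T, Wnt3, Fzd3 and Notum lie farthest to the lower side among called genes and Wnt7b and Rnf43 farthest to the higher side, while SEs run from 0.04 (Csnk1a1) to 0.46 (T).

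Of the 3 nuclear cofactors of beta-catenin 2 rose and 1 was not called, beside 21.4% higher among all genes tested. Bcl9l, which links beta-catenin to Pygo proteins, went from 26.4, 29.6 and 25.3 CPM with EtOH to 36.0, 39.9 and 34.5 CPM with 4OHT, 1.35-fold higher (SE 0.11 on the log2 scale, edgeR adjusted p = 0.00021). Its relative Bcl9 was at 39.7, 38.0 and 37.6 against 32.6, 37.5 and 32.5 CPM, lower in every 4OHT library but not called (log2 fold change −0.17, interval −0.36 to 0.02). The ratio of Bcl9 to Bcl9l per length was 1.63 ± 0.141 with EtOH and 1.07 ± 0.0249 with 4OHT. Pygo2, a reader of methylated histone H3, was at 68.1, 64.2 and 71.6 CPM against 78.3, 72.3 and 78.6 CPM, 1.13-fold higher (edgeR adjusted p = 0.042). The Pygo2 call was lost without EtOH replicate 1 (adjusted p = 0.09), EtOH replicate 2 (0.18), 4OHT replicate 1 (0.11) or 4OHT replicate 3 (0.14). It was also lost with upper quartile factors (0.11), DESeq2 (0.18) and the replicate block (0.051).

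T, which encodes brachyury, the T-box factor of the primitive streak and a direct WNT target, had the largest fitted fall of the 41 tested genes. T reached the minimum count in the EtOH libraries only, so its place in that ranking is tied to the difference itself. It had 22, 25 and 16 counts with EtOH and 0, 5 and 4 with 4OHT, which is 4.43, 5.65 and 3.94 CPM against 0, 0.902 and 0.625 CPM. The highest value with 4OHT was below 1 CPM and the lowest with EtOH near 4 CPM. The fitted difference was 8.62-fold lower (log2 fold change −3.11, SE 0.46, edgeR adjusted p = 1.1e-09; chromosome 17, 8434423 to 8442496), and it ranged from −3.69 to −2.63 over 13 alternatives. With no filter the log2 fold change of T was −3.10 (edgeR adjusted p = 3.4e-10). T was also 1 of the 8 mesendoderm markers, of which only T and Eomes were tested. Eomes, which is also on the trophectoderm list, was higher, with 25, 23 and 19 counts with EtOH and 57, 85 and 74 with 4OHT. The list summed to 11.1 to 13.7 CPM with EtOH and 13.7 to 17.7 CPM with 4OHT. That rise came from Eomes (4.97 ± 0.268 to 13.1 ± 1.98 CPM). Foxa2 was the only other marker with a higher mean, at 0.142 against 0.397 CPM, below the floor. Msgn1 had no count in any library. The part of mesendoderm cells in the value of T was not tested.

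The promoter window of T holds the TCF/LEF core 234 bases before the start, again as TCAAAG. It covers chr17:8434173-8434422 on the plus strand and is shown beside the fall of T, with the core in capitals:
T: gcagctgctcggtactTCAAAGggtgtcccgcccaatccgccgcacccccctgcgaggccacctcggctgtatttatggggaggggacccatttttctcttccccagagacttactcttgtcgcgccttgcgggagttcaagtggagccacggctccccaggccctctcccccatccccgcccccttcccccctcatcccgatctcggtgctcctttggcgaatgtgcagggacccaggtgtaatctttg
Neither CACGTG nor CATGTG stands in this window, which says only that these letters are not there.

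The rest of the pathway was read from 7 lists of 124 further genes, of which 82 were tested. Of these, 19 were higher and 23 lower with 4OHT, 51.2% beside 42.0% of all genes. The median log2 fold change was −0.05, and −0.0024 over all genes. Of 5 tested ligands and R-spondins 2 rose, Wnt7a (2.22, 3.16 and 2.95 to 8.90, 9.38 and 9.22 CPM, 3.34-fold, edgeR adjusted p = 1.7e-09) and Wnt9a (2.13-fold, adjusted p = 4.0e-06). Wnt7a thus moved in the same direction as Wnt7b, the ligand closest to it. Of 7 tested receptors and surface partners 2 fell, the polarity receptor Ptk7 (204 ± 10.3 to 139 ± 2.58 CPM, 1.46-fold lower) and the glypican Gpc3 (2.11-fold lower). Of 8 tested secreted and surface inhibitors 2 fell, Sfrp2 (17.6 ± 2.13 to 9.85 ± 1.78 CPM, 1.78-fold lower, edgeR adjusted p = 3.8e-06) and the pseudoreceptor Bambi (1.66-fold lower). Sfrp2 thereby moved opposite to its relative Sfrp1.

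Among 27 tested cytoplasmic regulators 5 rose and 8 fell, beside 21.4% and 20.6% of all genes tested. The Dishevelled partners Dact2 (1.502-fold) and Dixdc1 (1.73-fold) and the Dishevelled-binding Cxxc5 (1.30-fold) were higher. Ankrd6, also called Diversin, was 1.84-fold lower, Ccdc88c 1.25-fold lower and the casein kinase subunit gene Csnk2a1 1.25-fold lower. Of 14 tested genes for beta-catenin, TCF/LEF factors and partners, 5 rose and 6 fell. Ctnnb1, which encodes beta-catenin, went from 897 ± 22.0 to 1232 ± 21.0 CPM (1.37-fold higher, edgeR adjusted p = 7.4e-34), the co-repressor gene Tle3 rose 1.87-fold and Tcf7l2 1.504-fold. Tcf7 was 1.37-fold lower and the co-repressor gene Ctbp1 1.21-fold lower. Lef1, both a factor and a target, had values of 20.1, 20.3 and 22.6 CPM with EtOH and 1.95, 2.52 and 1.56 CPM with 4OHT. It was 10.5-fold lower (log2 fold change −3.40, SE 0.22, edgeR adjusted p = 5.1e-36). Lef1, Sp5 and Fst were called after reaching the minimum count in all libraries of EtOH only, so their place among the tested genes is tied to the difference. With no filter the log2 fold change was −3.39 for Lef1 and −2.28 for Sp5.

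In the planar polarity branch, which orients cells within a sheet, 3 of 12 tested genes rose and 1 fell. Among all genes tested 21.4% rose and 20.6% fell. Vangl1 was 1.66-fold higher (50.02 ± 3.61 to 83.6 ± 8.45 CPM) and the formin gene Daam1 1.33-fold higher, while the cadherin gene Celsr2 was 1.99-fold lower. The rise of Rhoa was 1.07-fold (edgeR adjusted p = 0.039), and it did not pass without EtOH replicate 1 (0.061), EtOH replicate 2 (0.065), EtOH replicate 3 (0.12) or 4OHT replicate 3 (0.16). It was also lost with upper quartile factors (0.21), DESeq2 (0.11) and the replicate block (0.051).

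WNT-responsive targets other than T split as well, with 4 of 11 tested higher and 6 lower, beside 21.4% and 20.6% of all genes tested. The lower targets include Lef1 and Tcf7, which are also counted among the TCF/LEF factors above. Sp5 had 9.06, 9.04 and 9.35 CPM with EtOH and 1.74, 2.34 and 1.56 CPM with 4OHT, 4.88-fold lower, and Ccnd1 322, 282 and 302 against 170.4, 171 and 171 CPM, 1.77-fold lower. On the other side were Cdx1 (7.05, 5.20 and 6.15 against 20.6, 21.6 and 19.4 CPM, 3.32-fold higher), Bmp4 (31.5 ± 1.73 against 69.5 ± 2.42 CPM, 2.20-fold higher) and the guidance receptor gene Ephb3 (1.61-fold higher, edgeR adjusted p = 1.4e-13).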

How the data were processed

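The authors deposited raw counts per gene with gene lengths in bases, 1 column per library. Per the submitters' processing notes, fastp, STAR and featureCounts were used on mm10; their versions, the annotation and the strand setting were not given in the sources used here. Libraries were stranded mRNA libraries from total RNA, per the labels' protocols. Genes were filtered with filterByExpr (minimum count 10, total 15), scaled with TMM factors and tested with edgeR 4.0.16 (robust quasi-likelihood, R 4.3.3) over the whole table. Fold changes are unshrunk, intervals span 1.96 SE on either side, and the SE is the log2 fold change over the square root of F. CPM per kilobase uses the deposited lengths. Of the WNT genes 10 share exon bases with another GENCODE vM21 model. Replicates of a group differed by more than counting error. The genes and lists were chosen with earlier results of these data known. Named were all 46 genes and, of each further list, up to 3 called genes per direction by smallest p. Alternatives were other scalings, filters, thresholds, DESeq2 1.42.0, limma-voom (limma 3.58.1), a replicate block and leaving out each library. The steps were tested on simulated data. Only genes above a set total count were changed there, so counts as low as those of T, Nkd1 and Dkk1 were not covered. Positions and promoters are those of RefSeq on GRCm38. Protein sequences were not used here.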

Additional observations from a re-analysis of the deposited data

How the results depend on the processing

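Under the other scalings, filters, tools and the stricter threshold of 0.01, 9 to 13 WNT genes were higher and 6 to 10 lower. Leaving out single libraries gave 10 to 13 higher and 7 to 9 lower. Requiring at least 1.5-fold left 5 higher and 4 lower, 13 higher and 9 lower genes of the further pathway lists, and 969 higher and 532 lower among all genes. The signs that turned were those of WNT genes that were not called. The log2 fold change of Fzd10 was −0.0027, but 0.00361 with no filter, 0.00210 with DESeq2 and 0.0169 with the replicate block, and that of Apcdd1 was −0.00824 with limma-voom. Leaving out single libraries gave ranges of −0.103 to 0.0919 for Fzd10, −0.201 to 0.261 for Apcdd1, −0.259 to 0.0760 for Porcn, −0.0832 to 0.00656 for Fzd5, −0.242 to 0.0451 for Ror2, −0.0496 to 0.158 for Gsk3a and −0.220 to 0.108 for Znrf3. The cause was not tested. The replicate number as a block gave 11 higher and 8 lower WNT genes. Deviations of same-numbered libraries correlated at −0.023, −0.016 and −0.017, so the numbers were not taken as pairs. Besides Pygo2 and Rhoa no named gene lost its call under the block. Upper quartile factors moved the median of all genes by −0.03. The 5 untested genes did not reach the minimum count in enough libraries at this depth. Wnt8a and Nkd1 were both admitted when EtOH replicate 3 or 4OHT replicate 1 was left out.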

Other observations

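Chromosome 11 held 9 of the 46 WNT genes (19.6%, beside 7.15% of the 25275 genes with a RefSeq position): Wnt3, Wnt3a, Fzd2, Dvl2, Axin2, Notum, Rnf43, Znrf3 and Kremen1. They did not move as a block, since Wnt3, Fzd2, Axin2 and Notum were lower, Dvl2 and Rnf43 higher, Znrf3 and Kremen1 not called and Wnt3a untested. On the further lists, 14 of 19 ligands and R-spondins and 11 of 19 secreted and surface inhibitors were too low to be tested.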
